A study of Arabidopsis thaliana with 51 samples.

Results

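The comparison described here is wild-type (WT) Arabidopsis thaliana treated for 10 h with the peptide Pep2 against untreated WT at 0 h. It uses 6 of the 51 arrays of the series, 3 in each group, chosen by the labels for genotype, peptide and time. Whole seedlings grew for 5 to 6 days on agar and for another 5 to 6 days in liquid medium, with 25 mM sucrose and days of 12 h light and 12 h dark, and the peptide was given at 1 µM. All lines were raised in this way. The comparison is set against 5 others of the same series. These are WT at 2 h of Pep2, WT at 10 h of the bacterial peptide elf18, the line with the alleles pepr1-1 Pepr2-3 (written pepr1 pepr2 from here on) at 0 h and 10 h of Pep2, bak1-3 at 0 h and 10 h of Pep2, and efr-1 at 0 h and 10 h of elf18, with 3 arrays in each group. No group was untreated for 10 h, so the difference between 10 h and 0 h holds elapsed time, including time of day, as well as the peptide. Each mutant was represented by these alleles alone, and the labels do not say whether replicates came from separate cultures. The p values and SEs of limma rest on the spread within groups, shared for each probe set over all 17 groups of the series. That spread may be technical. In whole seedlings, fewer cells of a type and less RNA per cell cannot be told apart.

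Pep peptides are cut from larger precursor proteins of the plant itself and act as danger signals around wounded or infected cells. They bind PEPR1 and PEPR2, receptor kinases with leucine-rich repeats in the plasma membrane, which work with the co-receptor kinase BAK1. The receptors pass the signal on through cytoplasmic kinases, calcium, reactive oxygen and mitogen-activated kinases, and many of the same steps follow perception of elf18, a fragment of bacterial elongation factor Tu, by the receptor EFR. Defence genes rise and growth is slowed in seedlings that are kept in such peptides. A line that lacks both receptors and was treated alike gives the background of the comparison.

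The values are log2 transcript levels of probe sets made by the authors with GCRMA. The 6 array medians lay between 6.09 and 6.11, the arrays of each group correlated at 0.9951 or more, so none of the 6 stood apart over all probe sets. The third array at 0 h was low for defence peptides and cytochromes P450. For plastid transcripts the first array at 10 h was the lowest of the 6 and the second at 0 h was low as well, as given with those genes. The lowest value of the table is 2.08, and 27.5% of the values on these arrays lay within 0.1 of it, so the size of a change that starts or ends there depends on the authors' background correction. Tissue markers were present. The root beta-glucosidase PYK10 stood at 14.37 ± 0.07 (SD, n = 3) at 0 h and at 14.33 ± 0.02 at 10 h, and the leaf protein RCA, the activase of Rubisco, at 15.07 ± 0.09 and 14.80 ± 0.06. The other measured markers were not all steady. The root gene EXPA7 changed by -0.44 without a call, and the leaf gene LHCB4.2 changed by -3.68 and was called lower. PEPR1, PEPR2, BAK1, EIN2 and the Pep precursors have no probe set with their name in the annotation used here, and no value is given for them.

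A probe set was called changed when limma gave an adjusted p under 0.05 and the difference was at least 2-fold. Of 14568 probe sets tested, 1248 (8.57%) were higher and 1289 (8.85%) were lower after 10 h of Pep2. Those called higher rose by a median of 1.54 on the log2 scale, and 382 of them (30.6%) rose at least 4-fold. Those called lower fell by a median of 1.59, and 393 (30.5%) fell at least 4-fold. Among the 7791 genes with a name, 618 (7.93%) were higher and 628 (8.06%) lower, with a median change of 0.0035 over all of them.

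The same treatment of pepr1 pepr2, which shares no array with WT, also changed many probe sets, 1051 higher (7.21%) and 1103 lower (7.57%). Of the probe sets called higher in WT, 547 were also called higher in pepr1 pepr2, which is 43.8% of the WT list and 52% of the mutant list. Of those called lower, 747 were shared, 58% of the WT list and 67.7% of the mutant list. Over the WT lists the median change in the mutant was 0.85 against 1.54 in WT for the higher list, and -1.15 against -1.59 for the lower one. The difference between the 2 responses, tested directly as an interaction, was called for 697 probe sets (4.78%) with a higher response in WT and for 558 (3.83%) with a lower one. In efr, which shares no array with these groups either, elf18 for 10 h changed 1178 probe sets upwards (8.09%) and 1037 downwards (7.12%), and 537 of the WT higher list (43%) and 661 of the WT lower list (51.3%) were called in the same direction, 45.6% and 63.7% of the efr lists.

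**Figure D1:**
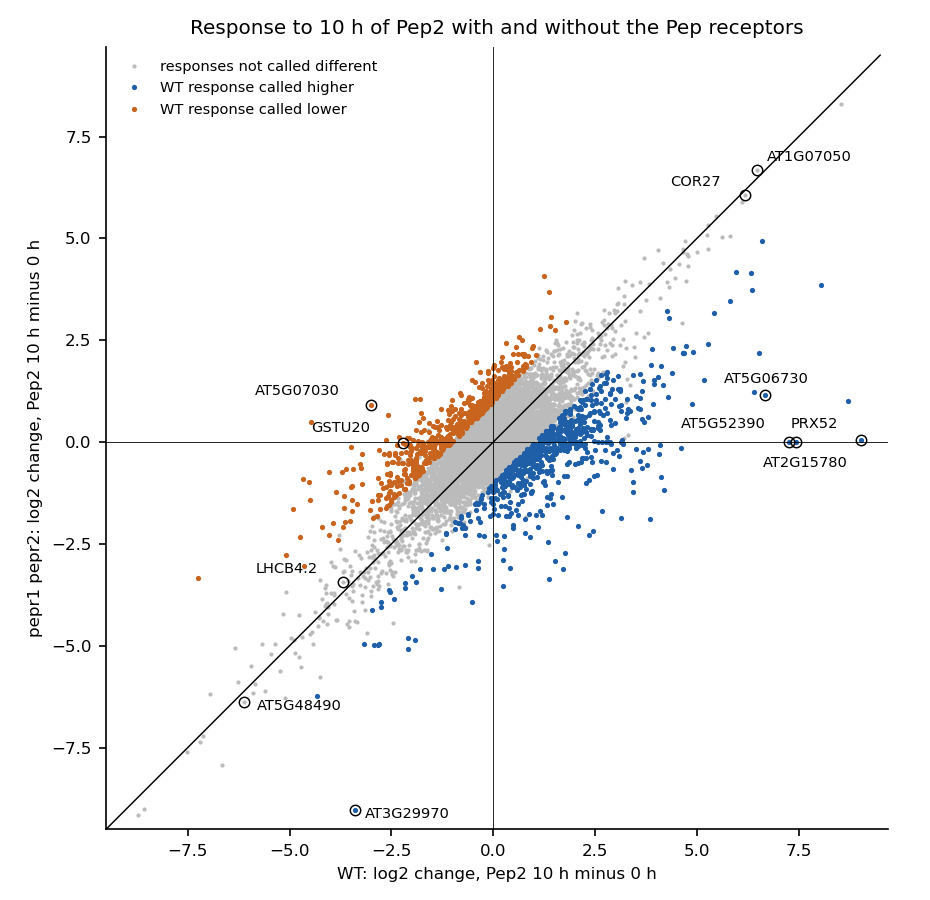
Log2 change of each of the 14568 tested probe sets at 10 h of Pep2 minus 0 h, in WT (horizontal axis) and in pepr1 pepr2 (vertical axis), with the line of equal change drawn. Blue points are the 697 with a WT response called higher and orange points the 558 called lower, grey points are not called different, and circles mark genes named in the text, such as PRX52 on the horizontal zero line and COR27 on the line of equal change.

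The largest increases among named genes were of PRX52, a secreted class III peroxidase, of AT2G15780, a copper-binding protein of the cupredoxin type, and of AT5G52390. PRX52 read 2.08 on all 3 arrays at 0 h and 11.22, 10.75 and 11.38 at 10 h of Pep2. It rose by 9.04 ± 0.31 (SE, limma, adjusted p = 3.1e-24). In pepr1 pepr2 it stood at 2.13 ± 0.09 after 10 h, far below all 3 treated WT arrays, and the difference between the responses was 8.99 ± 0.44 (adjusted p = 2.9e-18).

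AT2G15780 read 2.08 on every array at 0 h and 9.31, 9.69 and 9.53 at 10 h, and AT5G52390 read 2.08 and then 9.16, 9.59 and 9.28. The rises were 7.43 ± 0.36 and 7.26 ± 0.11. Both genes remained at 2.08 on all arrays of pepr1 pepr2 and on all arrays of WT at 10 h of elf18. WT at 10 h of Pep2 thus lay above these groups with no overlap, and the interactions were 7.43 ± 0.51 (adjusted p = 2.7e-13) and 7.26 ± 0.15 (adjusted p = 5.2e-31). At 2 h of Pep2 they differed: AT2G15780 already stood at 6.53 ± 0.67, and AT5G52390 at 2.12 ± 0.06.

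Other large increases were as large without the receptors. AT1G07050, a protein with the CCT motif of flowering and clock regulators, read 2.09, 2.08 and 2.09 at 0 h and 8.24, 8.67 and 8.78 at 10 h. Its rise was 6.47 ± 0.18 in WT and 6.69 in pepr1 pepr2. COR27, a cold- and clock-regulated protein that acts in the plant's clock, rose by 6.18 ± 0.21 in WT and 6.07 in the mutant, and AT1G56300, which holds a DnaJ chaperone domain, by 6.10 ± 0.35 and 5.89. The groups of WT did not overlap for any of the 3, and the interactions were between -0.22 and 0.21 with adjusted p from 0.58 to 0.85. AT4G16146 (5.63 ± 0.33 in WT and 5.05 in the mutant), AT2G39920 (5.28 ± 0.15 and 5.32) and AT4G22470 (5.28 ± 0.54 and 4.75), the last with a domain of lipid transfer proteins, also rose in both lines.

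A further set rose in both lines and more in WT. AT4G18250, a receptor-like kinase, read 2.27, 2.35 and 2.27 at 0 h and 7.80, 7.70 and 7.65 at 10 h, a rise of 5.42 ± 0.20 against 3.18 in pepr1 pepr2. The legume lectin-like AT5G03350 rose by 5.28 ± 0.48 against 2.41, and CML41, a calmodulin-like calcium sensor, by 5.16 ± 0.54 against 1.54. The interactions were 2.24 ± 0.28 (adjusted p = 2.7e-07), 2.87 ± 0.68 (adjusted p = 0.0018) and 3.63 ± 0.76 (adjusted p = 0.00056).

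**Figure D2:**
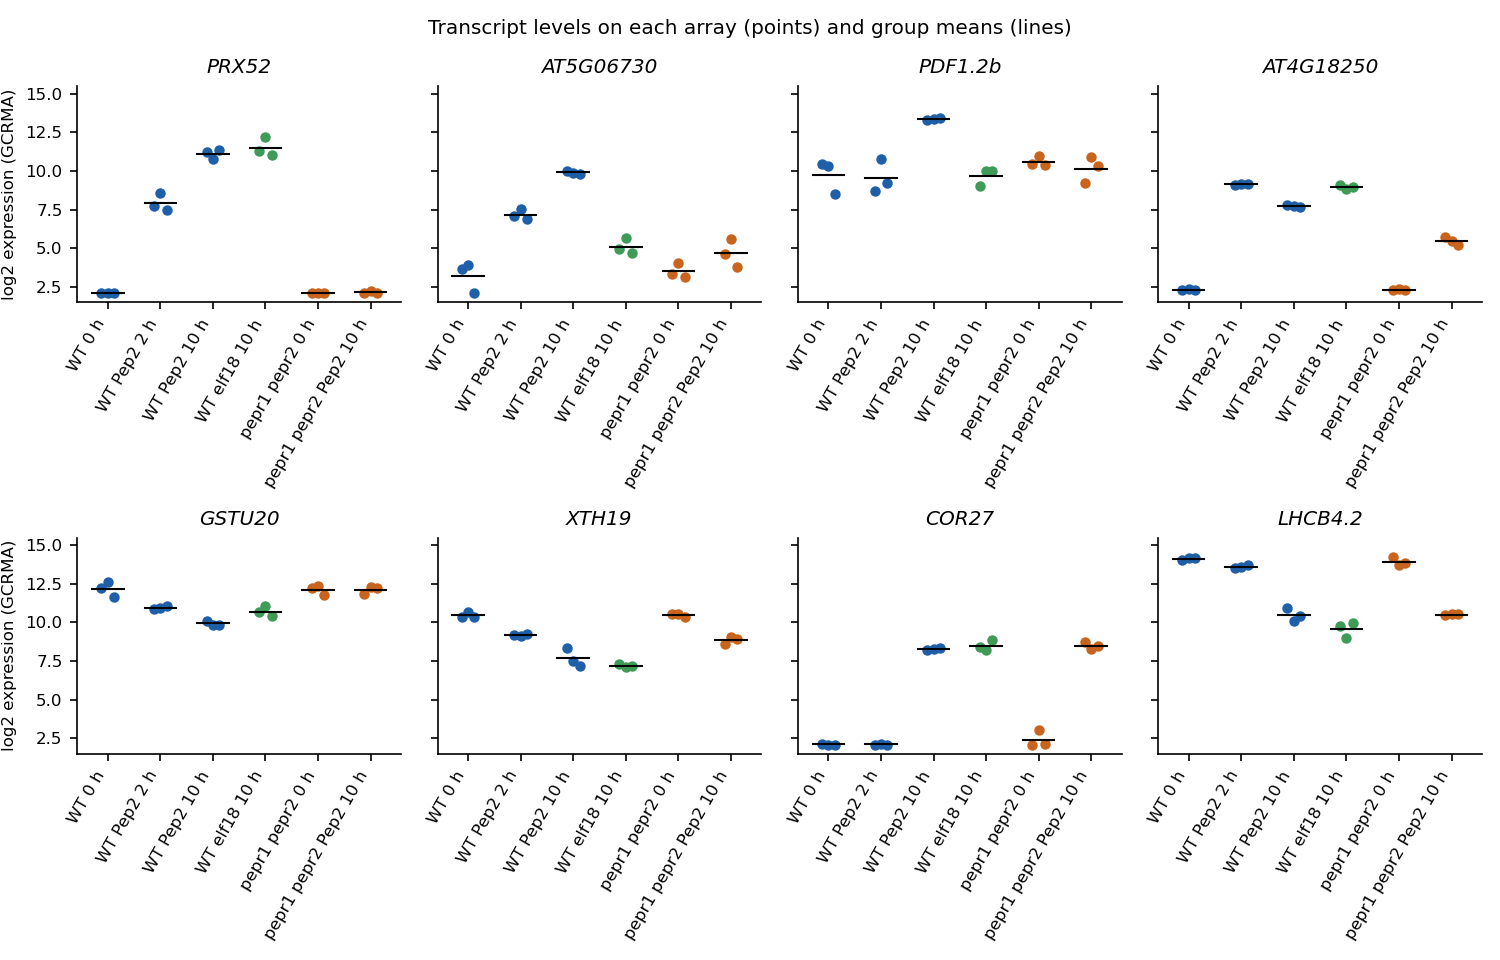
Log2 level on each array (points) and group mean (lines) for 8 genes in WT at 0 h, 2 h and 10 h of Pep2 and 10 h of elf18 and in pepr1 pepr2 at 0 h and 10 h of Pep2. At 10 h of Pep2 PRX52, AT5G06730 and PDF1.2b are far higher in WT than in pepr1 pepr2, AT4G18250 rises in both lines, GSTU20 falls in WT, XTH19 falls in both lines, and COR27 and LHCB4.2 change by similar amounts in both lines.

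Class III peroxidases, which use hydrogen peroxide to cross-link cell wall components or to make reactive oxygen outside the cell, included the gene with the largest rise, PRX52. Of 13 measured, 9 were higher, none was lower and 4 did not pass (AT1G71695, AT3G21770, AT4G30170 and AT5G66390, with changes between -0.37 and 0.45), and the family median was 2.80. Among all named genes 7.93% were higher and 8.06% lower. AT5G06730 read 3.65, 3.90 and 2.12 at 0 h and 10.03, 9.87 and 9.82 at 10 h, with a rise of 6.68 ± 0.40 (adjusted p = 5.9e-17) against 1.15 in pepr1 pepr2. AT4G08780 read 5.67, 6.38 and 4.91 and then 12.57, 12.34 and 11.65, with a rise of 6.53 ± 0.44 against 2.20. For neither gene did the groups overlap. Prx37 (2.90 ± 0.31), AT5G39580 (3.88 ± 0.32) and AT5G64120 (2.80 ± 0.22) rose as well, and AT5G64120 also rose in the mutant, by 1.73. The response was called higher in WT than in pepr1 pepr2 for 6 of the 13, among 4.54% of all named genes, and lower for none. AT5G19890 (3.25 ± 0.64), AT5G58390 (2.11 ± 0.37) and AT1G14550 (1.64 ± 0.52) were called in WT, with interactions of 2.28, 1.32 and 1.64 that did not pass (adjusted p from 0.061 to 0.1). The rise of AT1G14550 lost its call with values raised to a floor of log2 3 (0.82, adjusted p = 0.12) and without the first array at 10 h (1.32, adjusted p = 0.059). The 4 increases of the mutant lay below those of WT in the same genes.

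Defence peptides and pathogenesis-related proteins are secreted and act on microbes. Of 13 measured, 8 were higher and 1 was lower, with a median of 2.94, beside 7.93% and 8.06% of named genes. In pepr1 pepr2 3 were higher and 2 lower, beside 7.21% and 7.57% of all probe sets. The plant defensin PDF1.2b, a marker of joint jasmonate and ethylene signalling, read 10.47, 10.29 and 8.53 at 0 h and 13.30, 13.35 and 13.44 at 10 h. It rose by 3.60 ± 0.58 (adjusted p = 1.9e-06) and changed by -0.46 in the mutant, an interaction of 4.06 ± 0.82 (adjusted p = 0.00036). Its probe set is of a kind that can bind near-identical family members, so PDF1.2b and its copies cannot be told apart here. PDF1.2, on another probe set, read 8.49, 7.91 and 7.15 and then 10.73, 10.80 and 10.84.

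The defensin PDF2.1 rose from 6.39 ± 0.19 to 10.66 ± 0.22, by 4.27 ± 0.24 (adjusted p = 1.7e-17), and it also rose by 3.21 in pepr1 pepr2. The chitinase family member AT2G43620 rose from 10.04 ± 1.02 to 13.71 ± 0.02 and the chitinase CHI from 6.28 ± 0.97 to 9.31 ± 0.42. Their rises of 3.68 ± 0.43 and 3.03 ± 0.55 stood against 1.49 and -0.18 in the mutant. The response was called higher in WT for 7 of the 13, beside 4.54% of named genes. These 7 include PDF1.4, which itself changed by 0.49 ± 0.51 in WT without passing and fell by 2.02 in the mutant. The thionin THI2.2 fell by 1.73 ± 0.38 in WT and by 1.30 in the mutant, and LCR69, a defensin gene, rose by 1.35 ± 0.14 in WT and by 1.36 in the mutant.

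The third array at 0 h was the lowest of the 3 for 9 of these 13 genes and for 8 of the 13 peroxidases. The mean level over the 13 defence genes was 8.32, 8.26 and 7.28 on the 3 arrays at 0 h and 9.82, 9.79 and 9.73 at 10 h, so the groups did not overlap with or without that array. Without it, 6 of the 13 were called higher in place of 8 and the peroxidase count remained 9. The 2 calls lost were AT4G33720, a relative of PR1, with 11.81, 12.13 and 7.57 at 0 h and 13.89, 14.19 and 13.09 at 10 h (3.22 ± 1.20, adjusted p = 0.022, and 1.76 with adjusted p = 0.25 without the array), and LCR67, a defensin gene (3.13 ± 0.97, adjusted p = 0.0064, and 2.51 with adjusted p = 0.051 without it). The call of AT4G33720 was also lost with only the compared groups in the fit (adjusted p = 0.064) and without the first (adjusted p = 0.053) or the second array at 10 h (adjusted p = 0.066). PDF1.2b kept a rise of 2.99 without the array (adjusted p = 0.00012). For PDF1.2 the rise was 2.94 ± 0.77 (adjusted p = 0.0014) and 2.59 without the array (adjusted p = 0.012), and its interaction of 3.21 (adjusted p = 0.026) became 2.86 (adjusted p = 0.079).

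Of 6 measured genes of immune receptors and signalling, 3 were higher and none was lower, beside 7.93% and 8.06% of named genes. The receptor gene EFR read 3.39, 3.42 and 2.84 at 0 h and 5.67, 5.30 and 5.62 at 10 h, a rise of 2.31 ± 0.22 (adjusted p = 3.4e-11) against 1.05 in pepr1 pepr2 (interaction 1.27 ± 0.32, adjusted p = 0.0031). SD1-29, the lectin receptor kinase that senses bacterial 3-hydroxy fatty acids, rose by 1.80 ± 0.21, and the U-box ubiquitin ligase PUB24 by 1.63 ± 0.25. PUB22 and PUB23, ubiquitin ligases that dampen immune signalling together with PUB24, changed by 0.20 and 0.21 without passing, and their groups overlapped. BIK1, a cytoplasmic kinase below several immune receptors, changed by 0.93 ± 0.17 and stayed under the 2-fold minimum.

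Of the 6 measured marker genes of pattern-triggered immunity, 5 were higher and none was lower, beside 7.93% and 8.06% of named genes. The median of the 6 was 2.03, and 3 had a response called higher in WT than in pepr1 pepr2, beside 4.54% of named genes. The 5 called higher, AT1G26380, AT1G51890, AT5G39580, WRKY22 and WRKY53, are each also counted with their own gene family. The counts for the markers and for those families are therefore not separate results, here and in the other comparisons. WRKY53, a transcription factor of defence and senescence, read 6.86, 6.25 and 5.59 at 0 h and 8.66, 8.49 and 8.65 at 10 h, with a rise of 2.37 ± 0.42 (adjusted p = 9.7e-06). WRKY22 and WRKY6 rose by 1.15 ± 0.35 and 2.05 ± 0.17, so that 3 of 5 measured WRKY genes were higher. None of the 5 had an interaction that was called, and WRKY53 and WRKY6 both rose by 1.12 in the mutant. AT1G26380, an oxidase of the berberine bridge enzyme-like family that acts in indole defence metabolism, rose by 2.67 ± 0.57 against -1.68 in the mutant, and its neighbour AT1G26420 by 2.41 ± 0.50 against -0.37. In that family 5 of 12 measured genes were higher and 1 was lower, beside 7.93% and 8.06% of named genes. The largest rise in the family was of AT5G44400, which read 7.47, 7.66 and 7.44 and then 10.81, 10.74 and 10.96 (3.31 ± 0.18, interaction 2.50 ± 0.25, adjusted p = 4.3e-09).

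The second array of pepr1 pepr2 at 0 h stood apart in these genes, and its part in the differences between the lines was measured by leaving it out. The mean level on the 3 mutant arrays at 0 h was 4.55, 6.24 and 4.43 over the 6 immunity markers and 6.27, 6.85 and 6.11 over the 12 berberine bridge enzyme-like genes. Without it the response was called higher in WT for 2 immunity markers in place of 3, and for the same number of berberine bridge enzyme-like genes, 4. The change of AT1G26380 in the mutant became -0.67 (adjusted p = 0.32) in place of -1.68, and its interaction of 3.34 remained called. Calls of interactions that were lost without it include PDF1.2 (3.16, adjusted p = 0.053), PDF1.4 (1.95, adjusted p = 0.051), SD1-29 (0.79, adjusted p = 0.054) and AT5G64120 (0.85, adjusted p = 0.061). Without the third mutant array at 0 h, 5 immunity markers were called. The drop to 2 immunity markers was not particular to the second mutant array at 0 h. The count was also 2 without the third WT array at 0 h and without any single WT array at 10 h. It was 2 as well without the second or the third mutant array at 10 h.

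Of 7 measured leucine-rich repeat receptor kinases encoded side by side on chromosome 1, 3 were higher, AT1G51790 (2.80 ± 0.26), AT1G51850 (1.87 ± 0.26) and AT1G51890 (1.61 ± 0.40). The other 4 changed by 0.31 to 0.60 without a call, and 7.93% of all named genes were higher. A higher response in WT than in pepr1 pepr2 was called for 3 of the 7, AT1G51790, AT1G51860 and AT1G51890, and for none of them without the second mutant array at 0 h, where the mean level over the 7 was 7.46 against 6.83 and 6.59 on the others. None was called either without the third WT array at 0 h or the third mutant array at 10 h, and 1 was called without the first or the second WT array or the second mutant array at 10 h. Besides CML41, the calcium sensor CML42 rose by 1.37 ± 0.22, and CML38 fell by 1.11 ± 0.42, by less than in the mutant, where it fell by 3.04. The call of CML38 in WT was lost without the first array at 0 h (-0.81, adjusted p = 0.15) or without the first or the third array at 10 h, and its interaction was lost without the third WT array at 0 h (1.63, adjusted p = 0.065). In the salicylate pathway, UGT76B1, which glucosylates salicylic acid and isoleucic acid, rose by 1.81 ± 0.19 against -0.53 in the mutant (interaction 2.35 ± 0.27, adjusted p = 7.5e-08), and SAG101, a partner of the immune regulator EDS1, rose by 1.16 ± 0.27. GRX480, a glutaredoxin induced by salicylate, changed by 0.53 ± 0.34 and was not called. In the list for ethylene synthesis and signalling only EIN3 (0.04 ± 0.11), RTE1 (0.66) and ARL (-0.18) were measured, and none was called. No enzyme of ethylene synthesis is among these 3, and no gene of the ERF transcription factor list was measured.

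UDP-glycosyltransferases, which attach sugars to hormones and defence compounds, had 12 members higher and 2 lower of 35 measured, beside 7.93% and 8.06% of named genes. UGT71C3 rose by 2.27 ± 0.29, UGT80B1, a sterol glucosyltransferase, by 2.05 ± 0.18 and UGT73C1 by 1.88 ± 0.27. UGT80B1 rose by 2.65 in pepr1 pepr2 as well, whereas UGT76E12, which rose by 1.69 ± 0.51, fell by 1.35 there. A higher response in WT was called for 10 members and a lower one for 1, beside 4.54% and 3.76% of named genes, and a higher one for 6 without the second WT array or without the third mutant array at 10 h. Of 12 measured cytochromes P450, all of the CYP71B group, 3 were higher, beside 7.93% of named genes. All 12 were lowest on the third of the WT arrays at 0 h, with mean levels of 7.01, 7.25 and 6.53 on the 3 arrays. Without that array the count remained 3. CYP71B22 read 2.56, 2.56 and 2.34 at 0 h and 5.92, 6.61 and 6.80 at 10 h (3.96 ± 0.42, interaction 2.53 ± 0.59, adjusted p = 0.0016), and CYP71B23 rose by 2.09 ± 0.29. CCOAMT, a caffeoyl-CoA methyltransferase, rose by 3.43 ± 0.42 against -1.22 in the mutant. CCR2, a cinnamoyl-CoA reductase, rose by 1.14 ± 0.29 against -1.69. Beta-glucosidases had 4 of 11 higher and 2 lower, and the rises of BGLU42 (2.80 ± 0.15) and BGLU44 (2.22 ± 0.18) were equalled by 2.80 and 2.20 in the mutant.

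**Figure D3:**
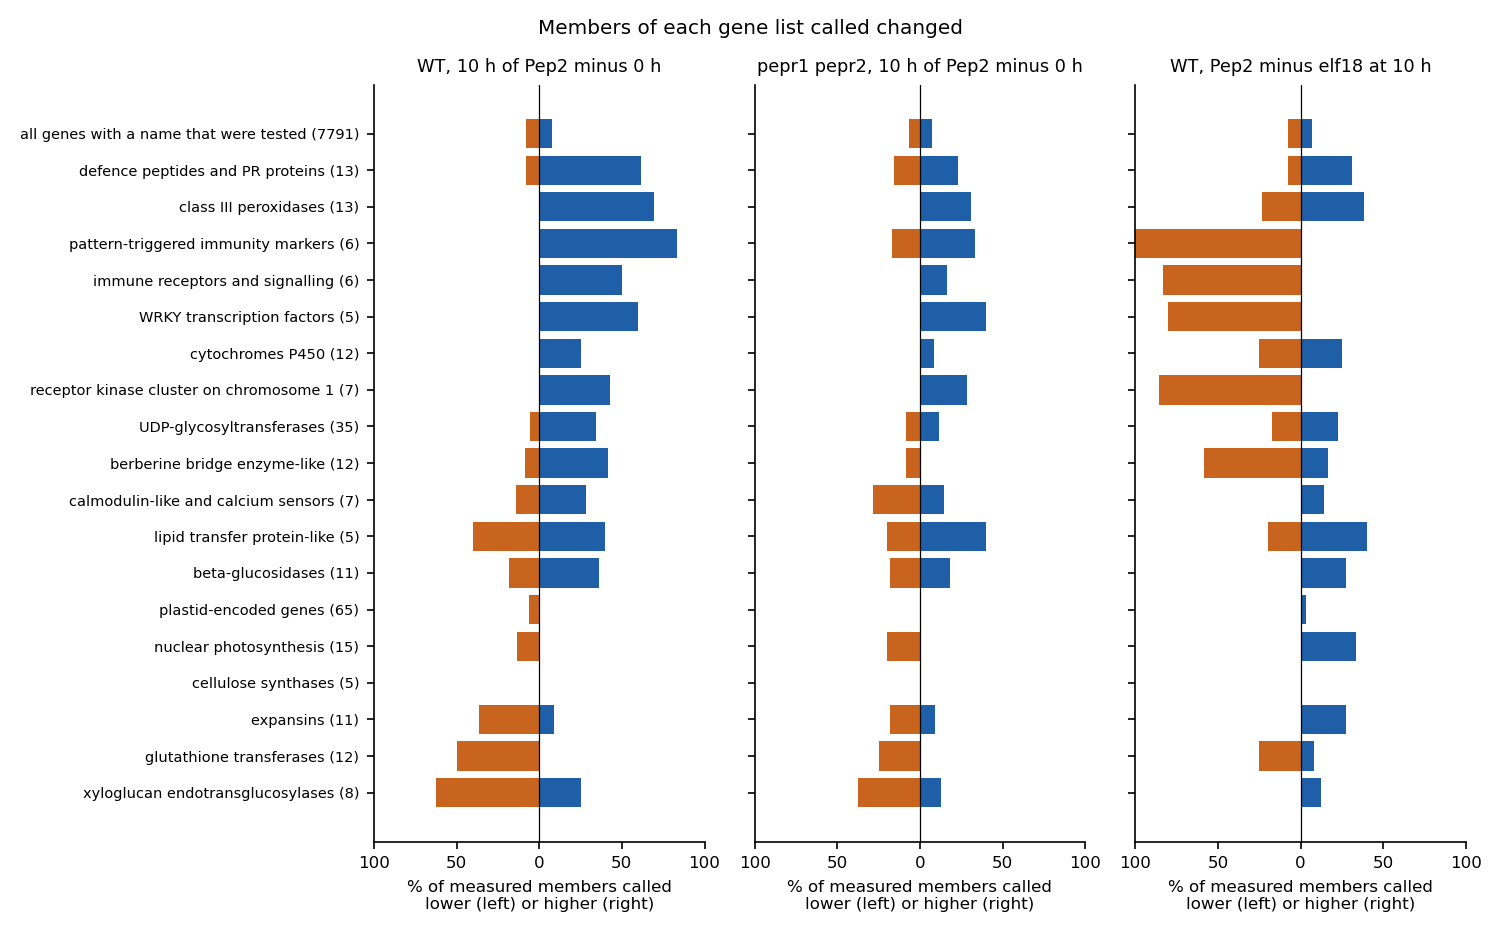
Share of the measured members (number in brackets) of each gene list with at least 5 measured members that was called higher (blue, to the right) or lower (orange, to the left), for WT at 10 h of Pep2 minus 0 h, for pepr1 pepr2 at 10 h of Pep2 minus 0 h, and for Pep2 minus elf18 at 10 h in WT. Peroxidases, defence peptides and immunity markers lie to the right in the first panel, and immunity markers lie wholly to the left in the third.

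Of 8 measured xyloglucan endotransglucosylases (XTH), which cut and rejoin the xyloglucans that tie cellulose together, 5 were lower and 2 higher, against 8.06% and 7.93% of named genes, with a median change of -1.65. XTH19 read 10.34, 10.67 and 10.34 at 0 h and 8.32, 7.52 and 7.16 at 10 h. It fell by 2.78 ± 0.21 (adjusted p = 3.7e-14) in WT and by 1.64 in pepr1 pepr2, with an interaction of -1.15 ± 0.29 (adjusted p = 0.0038). XTH21 fell by 2.96 ± 0.19, to 2.10 ± 0.03, and XTH32, XTH16 and XTH18 fell by 1.98, 1.87 and 1.42. XTH20 (2.10 ± 0.31) and XTH26 (1.37 ± 0.32) rose. The response was called lower in WT for 3 of the 8, XTH16, XTH19 and XTH21, of which XTH19 lost the call without the third WT array at 10 h (-0.89) and XTH21 with values raised to a floor of log2 3 (-0.43, adjusted p = 0.21).

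Expansins, which loosen walls without cutting them, had 4 members lower and 1 higher of 11 measured, beside 8.06% and 7.93% of named genes. EXPB3 read 7.59, 7.65 and 7.58 and then 5.73, 6.11 and 5.54, and fell by 1.81 ± 0.20 while it changed by 0.49 in pepr1 pepr2 (interaction -2.30 ± 0.29, adjusted p = 2.4e-07). EXLA1 also fell in WT, by 1.56 ± 0.29, with -0.08 in the mutant, whereas EXPB1 and EXPA8 fell in both lines. EXLB1 went the other way, from 5.18, 4.70 and 4.16 to 8.86, 8.68 and 8.66 (4.05 ± 0.26, against 1.59 in the mutant). None of the 5 measured cellulose synthase-like genes was called.

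Among named genes, AT5G07030, AT5G62340, sks15 and AT4G02850 had the lowest responses in WT relative to pepr1 pepr2. AT5G07030, an aspartyl protease, read 7.35, 7.82 and 7.71 at 0 h and 5.21, 4.69 and 3.99 at 10 h. It fell by 3.00 ± 0.20 in WT and changed by 0.90 in the mutant, an interaction of -3.90 ± 0.28 (adjusted p = 4.8e-13). The pectin methylesterase inhibitor family member AT5G62340 fell by 3.50 ± 0.38 against -0.13, sks15, of the SKU5-like oxidase family, by 2.58 ± 0.47 against a change of 0.68, TBL36, of a family that acetylates wall polysaccharides, by 3.63 ± 0.23 against -0.67, and GH9B13, of the endoglucanase family, by 3.28 ± 0.25 against -0.54. The WT groups did not overlap for any of these 5. AT4G02850 fell by 4.50 ± 0.25 against -1.41 and AT1G76240 by 3.25 ± 0.18 against -0.63. AT1G31690, a copper amine oxidase, stands in this list in another way, since it rose by 1.25 ± 0.35 in WT and by 4.08 in the mutant.

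Synthesis of aliphatic glucosinolates, sulphur-rich defence compounds made from methionine, differed between the lines: 2 of 3 measured genes were called lower in WT, and the interaction was called for the same 2. BCAT4, the aminotransferase at the entry of the pathway, read 10.58, 10.75 and 9.88 at 0 h and 8.12, 8.25 and 7.38 at 10 h, and fell by 2.49 ± 0.26 against -0.49 (interaction -2.00 ± 0.37, adjusted p = 0.00012). GSTU20, a glutathione transferase assigned to the pathway, read 12.21, 12.60 and 11.67 and then 10.12, 9.85 and 9.84, and fell by 2.22 ± 0.22 against -0.01 (interaction -2.21 ± 0.31, adjusted p = 2.8e-06). AT2G31790, a glucosyltransferase of the pathway, changed by -0.89 ± 0.12, under the 2-fold minimum. Among all 12 measured glutathione transferases, 6 were lower and none was higher, beside 8.06% and 7.93% of named genes. GSTU23 fell by 2.56 ± 0.22, ATGSTF13 by 2.28 ± 0.52 and GSTU28 by 2.06 ± 0.16, and the fall of GSTU28 was 1.82 in the mutant.

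Many of the largest decreases were shared with pepr1 pepr2. AT5G48490, a lipid transfer protein-like gene, read 10.35, 10.55 and 10.84 at 0 h and 5.98, 3.76 and 3.68 at 10 h, and fell by 6.11 ± 0.49 in WT and 6.37 in the mutant. The cysteine protease AT2G27420 fell by 5.84 ± 0.34, to 2.16 on average, and by 5.94 in the mutant. AT1G54050, a small heat shock protein, fell by 5.15 ± 0.34 against 4.23, and M17, a late embryogenesis abundant protein, by 5.08 ± 0.59 against 3.68. No interaction of these 4 was called (adjusted p from 0.16 to 0.92). The polygalacturonase AT1G48100 (-4.76 ± 0.26 in WT, -5.28 in the mutant), the nitrate transporter family member AT3G21670 (-4.71 ± 0.47, -5.53) and the small heat shock protein AT5G51440 (-4.30 ± 0.45, -4.51) moved in the same way.

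Measured genes of the clock, cold and light harvest that changed in WT changed by similar amounts in pepr1 pepr2. AT4G33980, also known as COR28 and a partner of COR27 in the clock, read 2.12, 2.08 and 2.12 at 0 h and 6.43, 6.96 and 6.92 at 10 h, and rose by 4.66 ± 0.17 in WT and 4.74 in pepr1 pepr2. COR15A (1.96 ± 0.40) and COR15B (2.29 ± 0.25), chloroplast proteins of cold acclimation, rose by 1.70 and 1.74 in the mutant. GI, a clock protein of the evening, changed by -0.61 ± 0.17 and was not called. Of 15 measured nuclear genes of photosynthesis, 2 were lower, beside 8.06% of all named genes. They were LHCB4.2, a light-harvesting protein of photosystem II, and CaS, a calcium sensor of the thylakoid. LHCB4.2 read 14.04, 14.20 and 14.17 and then 10.91, 10.07 and 10.39 (-3.68 ± 0.22, against -3.42 in the mutant), and CaS fell by 1.62 ± 0.22 (-1.41 in the mutant). The response was called different from that of pepr1 pepr2 for none of the 15 (limma, 4.54% of named genes higher and 3.76% lower). PORB, which makes chlorophyllide in the light, rose by 1.80 ± 0.17, and the methyltransferase CHLM of the same pathway fell by 1.06 ± 0.15.

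Transcripts encoded by the plastid varied between arrays of a group. Of 65 measured, 4 (6.15%) were called lower, psaC, ndhE, ndhG and psbT, near the 8.06% of all named genes, and none was called higher. The mean over the 65 was 12.01, 11.09 and 12.03 on the 3 arrays at 0 h and 10.55, 11.92 and 11.59 at 10 h, so that the groups overlapped, and 59 of the 65 were lowest on the second array at 0 h. Without the first array at 10 h none was called lower, and without the second array at 10 h 8 were.

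Small groups of hormone and stress genes also held changes, beside 7.93% of all named genes higher and 8.06% lower. Of 3 measured auxin-related genes, GH3.3 rose by 1.33 ± 0.21 (-0.37 in the mutant) and GH3.17, like GH3.3 an enzyme that joins amino acids to auxin, fell by 2.18 ± 0.21 (-1.36 in the mutant). Of 3 measured low-oxygen genes, AT4G27450 and AT5G10040 were lower (-3.09 ± 0.48 and -2.81 ± 0.58), and they fell by 4.69 and 4.96 in pepr1 pepr2. Of 4 measured genes of protein folding in the endoplasmic reticulum 2 were higher, the co-chaperone ATERDJ3B by 1.62 ± 0.14 and the calreticulin CRT1b by 1.05 ± 0.13, and CRT1b lost its call without the first array at 0 h (0.97). BZIP60, a transcription factor of the unfolded protein response, changed by 0.22 ± 0.13 and PDIL5-1, a disulphide isomerase-like protein, by -0.18 ± 0.14, neither with a call.

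The gene AT3G29970 had the largest interaction among named genes that fell in WT. It read 12.22, 11.44 and 10.10 at 0 h and 7.23, 7.92 and 8.42 at 10 h of Pep2, and its groups did not overlap. It fell by 3.40 ± 0.79 in WT and by 9.03 in pepr1 pepr2, to 2.87 ± 0.30, and the interaction was 5.63 ± 1.12 (adjusted p = 0.00032). At 10 h of elf18 in WT it stood at 2.47 on average. AT1G33030, an O-methyltransferase family member, rose by 1.72 ± 0.50 in WT and fell by 3.11 in the mutant (interaction 4.82 ± 0.71, adjusted p = 5.1e-06).

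Between 2 h and 10 h of Pep2 in WT, 1348 probe sets were higher at 10 h (9.25%) and 1516 lower (10.4%). All 6 measured markers of pattern-triggered immunity and all 6 measured genes of immune receptors and signalling were lower at 10 h than at 2 h. WRKY53 stood at 11.37 ± 0.11 at 2 h and was lower by 2.77 ± 0.42 at 10 h, PUB22 stood at 9.05 ± 0.18 and was lower by 2.26 ± 0.16, and EFR was lower by 1.16 ± 0.22. The largest decreases were of AT1G49000, from 9.54 ± 0.33 to 3.90 ± 0.32, of AT1G53080, from 7.25 ± 0.25 to 2.08, and of AT3G02840, from 8.28 ± 0.30 to 3.11 ± 0.09. BGLU27, a beta-glucosidase, was at 2.08 on all arrays at 0 h, at 9.99 ± 0.32 at 2 h and at 4.93 ± 0.14 at 10 h, and remained at 2.08 in pepr1 pepr2 at 10 h.

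Of the 13 peroxidases, 6 were higher and 2 lower at 10 h than at 2 h, and 5 were not called. Of the 13 defence genes, 5 were higher, 2 lower (PDF1.4 by 1.86 ± 0.51 and THI2.2 by 1.02 ± 0.38) and 6 not called, beside 9.25% and 10.4% of all probe sets, and the call of THI2.2 was lost without any of 3 of the 6 arrays. PRX52 was higher by 3.20 ± 0.31, AT5G06730 by 2.75 ± 0.40, PDF1.2b by 3.82 ± 0.58 and PDF2.1 by 5.96 ± 0.24, the last having stood at 4.70 ± 0.37 at 2 h, below its level at 0 h. The peroxidases lower at 10 h were AT5G39580, by 2.47 ± 0.32, and AT5G66390, by 1.43 ± 0.20. EXLB1, which stood at 3.14 ± 0.02 at 2 h, was higher by 5.59 ± 0.26 at 10 h.

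The 2 peptides were compared directly at 10 h in WT, where each group has its own arrays. Pep2 was higher for 1032 probe sets (7.08%) and lower for 1162 (7.98%). All 6 measured markers of pattern-triggered immunity were lower with Pep2 than with elf18, against 7.41% of named genes, by 1.77 (WRKY53) to 5.93 (AT2G17740). AT2G17740 read 7.09, 6.94 and 4.97 with Pep2 and stood at 12.26 ± 0.14 with elf18. Of the 7 receptor kinases on chromosome 1, 6 were lower, AT1G51820 by 4.16 ± 0.40, and of 6 immune receptor and signalling genes 5 were lower, PUB22 by 3.87 ± 0.16. The nitrate transporter NRT2.5 was at 2.08, 2.08 and 2.11 with Pep2 and at 8.42 ± 0.57 with elf18. AT1G26410 (-6.23 ± 0.29), of the berberine bridge enzyme-like family, AT5G48430 (-5.88 ± 0.44) and the glutamate receptor-like ATGLR1.2 (-5.53 ± 0.32) were also far below their elf18 levels.

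Of the 13 defence genes 4 were higher with Pep2, 1 was lower and 8 were not called, beside 6.85% and 7.41% of named genes. The higher ones were PDF1.2b (3.71 ± 0.58, adjusted p = 1.3e-06), PDF1.2 (4.38 ± 0.77), LCR67 (3.87 ± 0.97) and PDF2.1 (1.34 ± 0.24), and the lower one was AT2G43620 (-1.08 ± 0.43), a call that was lost without any of 5 of the 6 arrays. Of the 13 peroxidases 5 were higher, 3 lower and 5 not called. With any single array left out 3 or 4 were higher, and 3 without the first elf18 array. AT5G06730 (4.81 ± 0.40) and AT4G08780 (2.45 ± 0.44) were among the higher ones, and AT1G14550 (-3.92 ± 0.52), AT5G39580 (-4.09 ± 0.32) and AT5G64120 (-1.37 ± 0.22) were the lower ones. PRX52 did not differ by the test, with -0.38 ± 0.31 (adjusted p = 0.33). Of the 15 nuclear photosynthesis genes, 5 were higher with Pep2, against 6.85% of named genes, and none was lower, with a median difference of 0.83. CaS stood at 11.12 ± 0.08 with Pep2 and 8.91 ± 0.20 with elf18, against 12.74 ± 0.07 at 0 h. In the flavonoid pathway 3 of 4 measured genes were higher with Pep2, among them DFR, dihydroflavonol reductase, at 6.19 ± 0.43 against 2.44 ± 0.27. Against 0 h all 4 were lower with elf18 (median -2.64). With Pep2 1 was higher and 1 lower than at 0 h (median -0.42), and DFR changed by -0.20 without a call. The universal stress protein family member AT3G62550 was higher by 6.00 ± 0.34, and it rose from 0 h by 4.70 ± 0.34 with Pep2 in WT and by 4.94 in pepr1 pepr2.

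**Figure D4:**
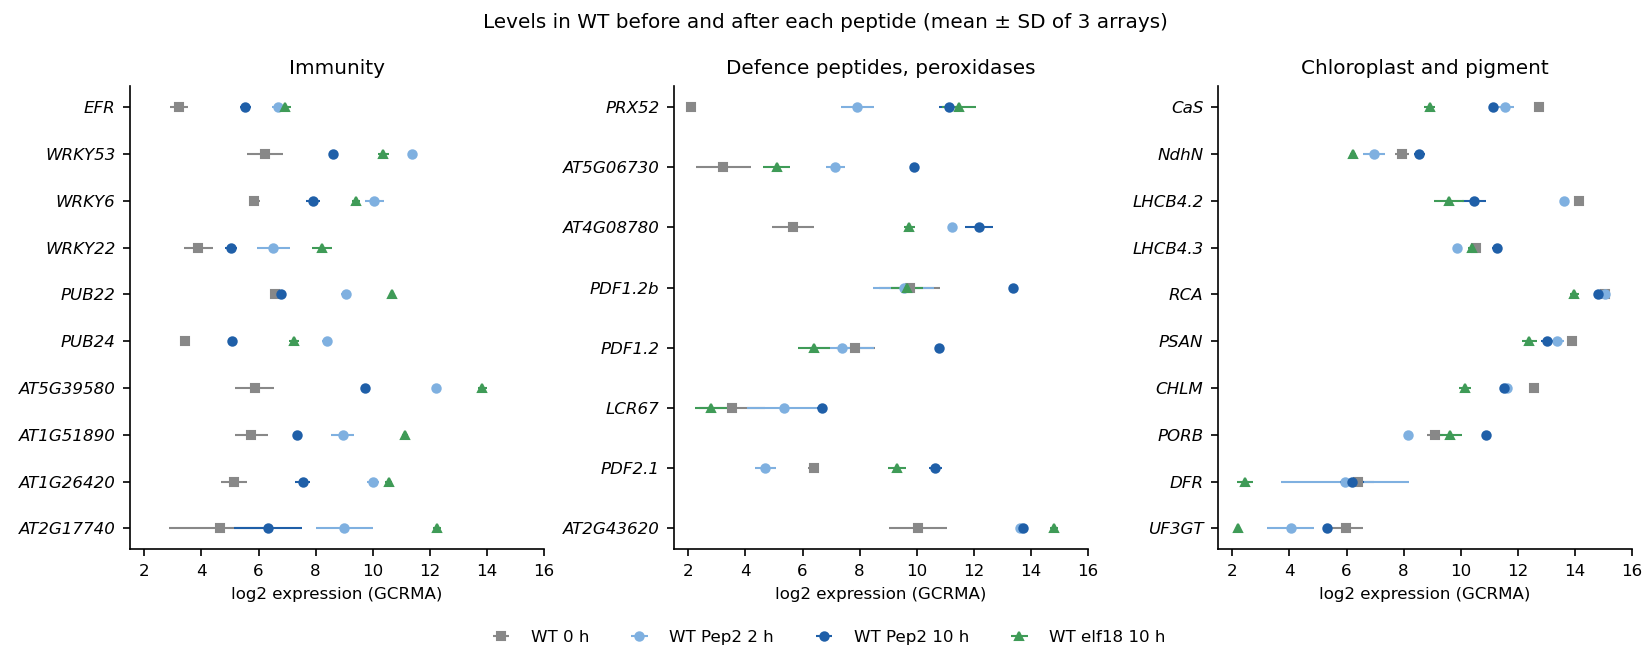
Mean log2 level ± SD of 3 arrays in WT at 0 h (grey squares), 2 h of Pep2 (light blue circles), 10 h of Pep2 (dark blue circles) and 10 h of elf18 (green triangles) for named genes of immunity, of defence peptides and peroxidases, and of the chloroplast and pigments. In the left panel all triangles lie to the right of the dark circles, and for AT5G06730, PDF1.2b, PDF1.2 and LCR67 they lie to the left.

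In bak1, 10 h of Pep2 changed more probe sets than in WT, 2196 higher (15.1%) and 2467 lower (16.9%). Of the WT higher list 1034 were also called higher in bak1, which is 82.9% of the WT list and 47.1% of the bak1 list, and of the lower list 1019 (79.1% and 41.3%). Over the WT lists the median change in bak1 was 2.03 against 1.54 and -1.87 against -1.59. The response was called higher in WT than in bak1 for 1218 probe sets (8.36%) and lower for 973 (6.68%). PRX52 rose by 10.36 in bak1 (interaction -1.32 ± 0.44, adjusted p = 0.016, and -1.14 with adjusted p = 0.052 without the second WT array at 10 h). AT2G15780 rose by 7.88 and PDF1.2b by 2.09 in bak1, and for neither was the interaction called.

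Several genes with small changes in WT rose in bak1. AT1G26390 read 2.11, 2.68 and 2.68 at 0 h and 2.68 on every array at 10 h in WT, and rose by 7.60 in bak1 (interaction -7.41 ± 0.66, adjusted p = 2.7e-11). Its neighbour AT1G26380, with 2.67 in WT, rose by 7.74 in bak1. AT4G03450, an ankyrin repeat protein, and AT5G44990, of the glutathione transferase family, read 2.08 to 2.10 on the WT arrays at 0 h and 10 h and rose by 5.60 and 5.52 in bak1. SBT3.3, a subtilisin-like protease linked to defence priming, rose by 1.43 ± 0.29 in WT and by 6.69 in bak1. On the other side, the GDSL lipase family members AT5G45670, AT5G45950 and AT3G16370 changed by -1.39, -0.70 and -0.29 in WT and fell by 6.59, 5.34 and 4.47 in bak1. XTH19 changed by -2.78 in WT and -4.87 in bak1 and EXPB3 by -1.81 and -4.49. Among the 8 XTH genes the response was called higher in WT than in bak1 for 6 and lower for 1. It was higher for 3 of the 11 expansins and lower for none, beside 8.36% and 6.68% of all probe sets. In bak1 itself 7 of the 8 XTH genes were lower and none was higher, beside 16.9% and 15.1% of all probe sets. The median change of the 8 was -1.65 in WT and -1.64 in bak1. These near-equal medians do not show equal responses, since the median of the differences gene by gene (WT minus bak1) was 1.94.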

How the data were processed

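Log2 expression values of 22810 ATH1 probe sets on 51 arrays were deposited by the authors, and GCRMA is the tool named in the submitters' processing notes. Its version is not given in the sources used here. The log2 values were used as deposited, without another normalization.

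Probe sets with at least 3 arrays at log2 5 or more were kept (14568). limma 3.58.1 fitted 1 mean per group over all 17 groups of 3 arrays, p values were adjusted by the Benjamini-Hochberg method within each comparison, and a call needed an adjusted p under 0.05 and a 2-fold change. The script was tested on simulated data. Array number limits the precision.

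The platform annotation gave 13513 probe sets 1 gene, 503 several and 8730 none, and 13436 symbols were updated through RefSeq. For a gene with several probe sets the one with the highest mean was used. Named genes are the 15 largest increases and decreases, 8 in each direction of the other comparisons, and list members with the largest changes. The comparison and the gene lists were chosen with earlier results of these data known. Alternatives were the filter, scaling, floor, trend, array weights, samples fitted, replicate block and each array left out.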

Additional observations from a re-analysis of the deposited data

Results flagged for a closer look

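The following responses differed between lines by the limma interaction test. Against pepr1 pepr2, the WT response to 10 h of Pep2 was higher for 697 probe sets and lower for 558. The largest differences towards a higher WT response were of PRX52 (8.99), AT2G15780 (7.43), AT5G52390 (7.26) and AT3G29970 (5.63), all on the log2 scale. Those towards a lower WT response were of AT5G07030 (-3.90), AT5G62340 (-3.37), sks15 (-3.26) and AT4G02850 (-3.08).

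Against bak1, the WT response was higher for 1218 probe sets and lower for 973. AT5G45670 (5.20), AT5G45950 (4.63), AT5G57760 (4.42) and AT3G16370 (4.18) had the largest differences towards a higher WT response, and AT1G26390 (-7.41), AT4G03450 (-5.60), AT5G44990 (-5.52) and BGLU45 (-5.44) towards a lower one.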

How the results depend on the processing

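Over 345 genes in each of 6 comparisons, no called change took the opposite sign under the alternatives run. Without the 2-fold minimum the counts of probe sets higher and lower were 3918 and 3793 for 10 h of Pep2 in WT, 4401 and 3680 against 2 h, 3706 and 3511 against elf18, 1771 and 1848 for the difference from pepr1 pepr2, 2838 and 2545 for that from bak1, 3824 and 3381 in pepr1 pepr2, and 2157 and 2210 in both WT and pepr1 pepr2. With 1 array left out in turn the counts lay between 1236 and 1319 higher and 1262 and 1302 lower for WT, 1333 and 1384 and 1482 and 1548 against 2 h, 1013 and 1084 and 1137 and 1157 against elf18, 581 and 770 and 434 and 655 for the difference from pepr1 pepr2, 1134 and 1328 and 909 and 1033 for that from bak1, 1023 and 1071 and 1067 and 1183 in pepr1 pepr2, and 510 and 576 and 710 and 767 in both lines. Arrays with the same number in WT at 0 h and 10 h correlated in their deviations at -0.124, -0.0928 and 0.17, and 1 of 3 correlated best with its own number, so they were not treated as pairs, and with the replicate block 1252 were higher and 1291 lower in WT and the interaction with pepr1 pepr2 gave 717 and 576. In 2 other pairs of groups each array correlated best with its own number, a hint from the data and not from the design, with 1 value under 0.1 in each (0.0915, 0.146 and 0.164 for elf18 and Pep2 at 10 h in WT, 0.0714, 0.148 and 0.254 for pepr1 pepr2 at 0 h and 10 h). For 2 h and 10 h in WT the values were 0.00847, 0.0901 and 0.274, and in bak1 -0.0748, 0.0808 and 0.044. Among these genes, the calls lost without at least 1 of the arrays, left out in turn, were 16 of 146 in WT, 25 of 150 against 2 h, 15 of 130 against elf18, 31 of 86 for the difference from pepr1 pepr2, 17 of 88 for that from bak1 and 21 of 99 in pepr1 pepr2. Of the 146 genes called in WT, from 0 to 10 lost the call in a single setting, 10 of them without the first array at 10 h. Signal near the lowest value limits the size of changes that start or end there.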
